A study of Mus musculus with 24 samples.

Results

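Loss of accessible sites was followed in E14 mouse embryonic stem cells whose CTCF is fused to an auxin-inducible degron (AID), so that adding the auxin IAA removes the protein. All groups described here carry this CTCF AID genotype. The cells were a line that the labels call an overexpression control, sampled without IAA (2 libraries) and after 12 h of IAA (2 libraries). These 4 libraries, chosen by their labels, are part of 24 in the series. The labels do not say what the control construct holds, whether the line is a clone, or whether libraries numbered 1 and 2 came from separate cultures. The spread between 2 libraries may therefore be technical. Cells were grown in serum-free N2B27-type medium with leukemia inhibitory factor and the inhibitors PD0325901 (MEK) and CHIR99021 (GSK3), in both groups alike. The other groups used for reference were lines of the same genotype that overexpress wild-type or mutated CTCF, each with 12 h of IAA, and CTCF AID cells labelled as grown in serum with 0 h or 12 h of IAA (2 libraries each). The growth protocol in the labels names the serum-free medium for every library, those labelled serum included. The abundance of CTCF protein was not analysed here.

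CTCF is a zinc finger protein that binds a long, well-defined DNA sequence and holds nucleosomes away from it, which leaves a short stretch of open DNA. Where it stops cohesin moving along the chromosome, it forms the boundaries of chromatin loops and domains. In stem cells it occupies many intergenic and intronic sites as well as promoters, and it insulates imprinted genes such as Igf2 and the ordered Hox genes. ATAC-seq marks open DNA through insertions of a transposase, and a peak is a place where insertions pile up.

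Each library was available as a list of peaks. The untreated lists held 132912 and 139221 peaks and the IAA lists 120137 and 128794. Read depth is not given in these lists, so a missing peak means a signal below the limit of its list, not closed chromatin. In a bulk culture, fewer cells with an open site and less opening per cell cannot be told apart. IAA replicate 1 stood apart from the other 3 libraries. Its median peak was 456 bp long against 342 to 373 bp, its shortest peak was 167 bp against 130 to 140 bp, and its highest −log10 p was 450 against 1744 to 1805. Below, site counts, motif shares and the shares lost by mismatches, strength, position and gene list are given without it too. The lists of named sites rest on all 4 libraries. Promoter peaks of the 10 pluripotency markers were present for 9, 10, 10 and 10 genes in untreated replicates 1 and 2 and IAA replicates 1 and 2, with Pou5f1 missing from the first. Promoters of 4 of 7 feeder fibroblast markers had a peak in every library, with none at Col1a1, Col3a1 and Prrx1. Promoters of trophoblast (5 of 5), mesoderm (3 of 3) and neural (4 of 4) regulators also had one in every library, and of primitive endoderm regulators 4 or 5 of 5. A promoter peak therefore does not tell these cell types apart.

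Summits of the 4 lists were joined into 195650 sites. A site was lost when both untreated libraries and neither IAA library had a peak within 100 bp of its centre, and gained in the opposite case. Of 119657 sites called in both untreated libraries, 10623 were lost (8.88%). Of 110990 sites called in both IAA libraries, 5169 were gained (4.66%). A further 95547 sites were called in all 4 libraries and are named retained. Replicates disagreed often: 29.3% of the sites called in either untreated library and 30.6% of those called in either IAA library were called in 1 of the 2 only. Lost sites made up 67.3% of lost and gained sites together, and 55.8% when all lists were reduced to the length of the shortest by −log10 p. Since fewer libraries set a weaker condition, counts rose when a library was left out. Lost sites numbered 24602 and 21635 without untreated replicate 1 or 2, and 16811 and 17922 without IAA replicate 1 or 2. Gained sites numbered 10064 and 10548 without untreated replicate 1 or 2, and 16336 and 15125 without IAA replicate 1 or 2.

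Strength is given as a percentile, the rank of a peak's deposited −log10 p within its own list, with 100 the strongest; a site takes the weaker of its replicates. Of the 96 lost sites above percentile 80, 52 held a match to the sequence CTCF reads. Shown here are matches to the 14-base core of the CTCF consensus at lost sites in protein-coding promoters, promoters of noncoding genes, exons, an intron and between genes, chosen because they are among the strongest of their position class or gene list. Each is read 5′ to 3′ on the strand of the match from the GRCm38 (mm10) genome, with the match in capitals. Bases outside it are the flanking genome.
1700013F07Rik promoter, chr3:108537430-108537483, plus strand: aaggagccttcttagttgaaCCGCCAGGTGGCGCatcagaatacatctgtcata
Adprhl1 promoter, chr8:13254315-13254368, minus strand: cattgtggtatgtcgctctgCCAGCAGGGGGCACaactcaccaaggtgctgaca
Adat1 promoter, chr8:111990085-111990138, minus strand: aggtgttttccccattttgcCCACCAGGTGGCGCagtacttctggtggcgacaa
Gm34643 promoter, chr14:103012707-103012760, plus strand: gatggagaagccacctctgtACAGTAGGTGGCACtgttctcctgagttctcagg
Gm22778 promoter, chr13:91723295-91723324, plus strand: tatgtgtgCCAGTAGGTGGCAGagaggaga
Riok2 exon, chr17:17394532-17394561, plus strand: agaagtgaCCACCAGATGGCAGtgtttgcc
Dst coding exon, chr1:34218486-34218539, plus strand: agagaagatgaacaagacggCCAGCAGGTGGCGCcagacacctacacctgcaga
Olfr649 region, chr7:104199970-104200023, plus strand: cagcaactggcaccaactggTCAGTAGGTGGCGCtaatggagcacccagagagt
4930564D02Rik region, chr3:105114477-105114530, plus strand: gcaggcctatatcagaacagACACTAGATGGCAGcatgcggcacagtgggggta
Ccnd2 intron, chr6:127147850-127147903, plus strand: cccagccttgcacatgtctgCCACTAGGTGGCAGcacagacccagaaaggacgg
Adprhl1, Adat1, Gm22778, Riok2, Dst and Ccnd2 match the consensus without a mismatch, and the other 4 with 1 mismatch.

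The peak at the promoter of Adat1, which encodes a tRNA-editing deaminase, stood at percentiles 74.1 and 76.8 in the untreated libraries. The site lay 257 bp from a start of the gene, and neither IAA list held a peak there. At the promoter of Adprhl1, an ADP-ribosylhydrolase-like gene, untreated percentiles were 75.6 and 78.5, and by merged intervals the site was not lost. At 1700013F07Rik they were 75.8 and 81.4. These promoters had peaks in both untreated serum libraries too. With IAA in serum, Adprhl1 and 1700013F07Rik had none and Adat1 had 1, at percentile 20.1. Of the 4 strongest lost sites at protein-coding promoters, the remaining one was Rgs20, a regulator of G protein signalling, at 76.2 and 77.1. Its window, chr1:5070284-5070484, held a match with 2 mismatches.

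Stronger lost sites were found away from protein-coding promoters, with and without a match. The site 139 bp from the start of the noncoding gene Gm34643 stood at 88.5 and 86.9 without IAA, and at 86.0 and 77.3 in untreated serum libraries. The next noncoding promoters, Gm24931 at 85.3 and 82.8 and Gm15172 on the X chromosome at 80.4 and 77.9, held 3 mismatches at best. The promoter of Gm22778 followed at 75.4 and 75.5, with an exact match. A site 4043 bp from the start of Olfr649, an olfactory receptor gene, stood at 88.9 and 89.3. A site 22195 bp from Gm13506 stood at 88.7 and 89.2 with 2 mismatches at best. A site 47632 bp from 4930564D02Rik stood at 87.9 and 91.6. The strongest lost exonic site was in Gm3294, 1691 bp from Mir129-1, at 83.8 and 85.9, and its window held 4 mismatches at best. The exonic site of Riok2, a kinase of small ribosomal subunit maturation, stood at 82.1 and 85.0. The site in the coding sequence of Dst, which encodes the cytoskeletal linker dystonin, stood at 79.9 and 86.2, and the exonic site of 1700063H04Rik, with 1 mismatch, at 79 and 81.4. The last was not lost by merged intervals or with peaks accepted up to 250 bp from the centre. Gm34643, Riok2, Dst and the sites near Olfr649, Gm13506 and 4930564D02Rik, and that in Gm3294, had a peak in both libraries of the wild-type line and both of the mutated line. Gm24931, Gm15172 and Gm22778 had one in both libraries of the wild-type line and 1 of the mutated line, and 1700063H04Rik in both and none. Of 2154 lost sites listed in both untreated serum libraries, 344 were also listed in both serum IAA libraries. The strongest of the named ones lay 8907 bp from n-R5s172 and 88141 bp from Smim20 on chromosome 5 and stood at 89.1 and 90.3 without IAA. With IAA in serum it stood at 40.1 and 59.2. With a peak accepted up to 250 bp from the centre, Gm34643 was called in 1 IAA library, and it was not lost by summits or merged intervals either.

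**Figure D1:**
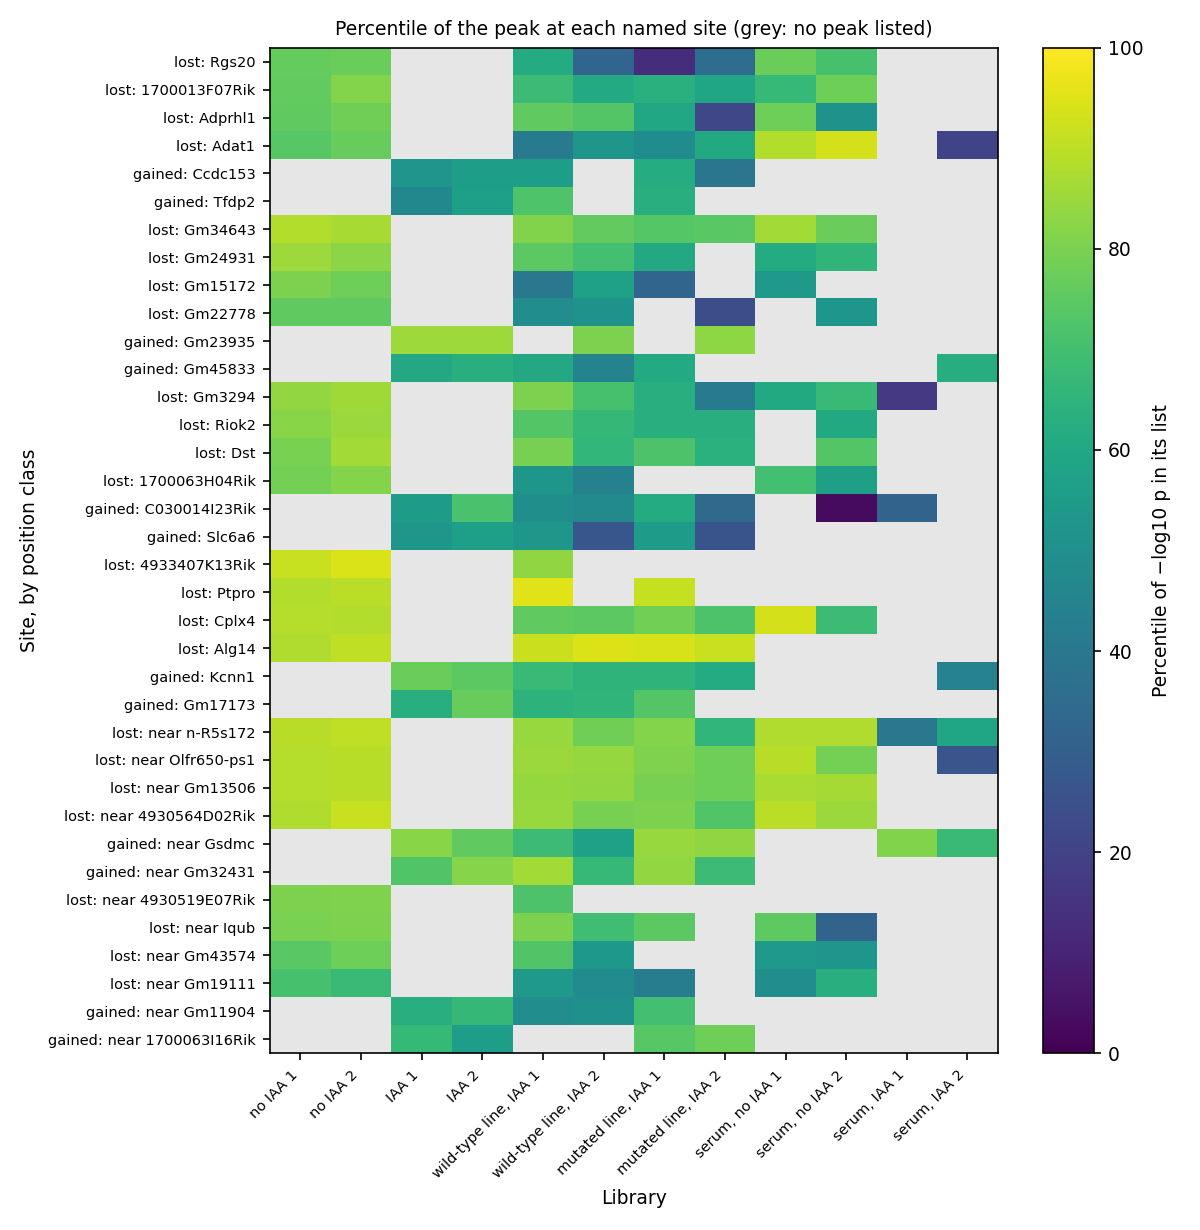
Percentile of the peak in each of 12 libraries (columns) at the 4 strongest lost and 2 strongest gained sites of each position class (rows, named by the gene they lie in or by the nearest start). Grey marks a library with no listed peak. Lost rows are grey in both IAA columns of the control line by definition, and Alg14, Ptpro, 4933407K13Rik and the site near 4930519E07Rik are grey in all 4 serum columns.

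In gene deserts the 4 strongest lost sites lay nearest 4930519E07Rik, Iqub, Gm43574 and Gm19111. Iqub stood at 79.9 and 80.3 with 2 mismatches at best, Gm43574 at 74.6 and 77.9 and Gm19111 at 71 and 67.2, both with 1 mismatch.

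Not every strong lost site looked alike. Peaks in introns of Ptpro (a receptor-type phosphatase) were at percentiles 88.4 and 89.7 but only 142 and 136 bp long. In an intron of Alg14, a gene of N-glycan assembly, they were at 88.1 and 90.6 and 146 and 161 bp long. In an intron of 4933407K13Rik on the X chromosome they were at 91.7 and 94.2 and 175 and 181 bp long. The desert site nearest 4930519E07Rik was at 80.4 and 80.6 and 153 and 157 bp long. No serum library listed any of these 4 sites, and the windows held 2, 3, 2 and 2 mismatches to the consensus at best. Their length lay near or below the shortest peak of IAA replicate 1. Of 1935 sites whose untreated peaks were both shorter than 167 bp, 39.3% were lost, and 36.1% and 51.1% had a peak in IAA replicates 1 and 2. For the other 117722 sites the share lost was 8.38%, with 85.8% and 86.5% called. Leaving the short ones out kept 9862 lost sites. The part of peak length in the loss of short sites was not tested.

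A consensus match with at most 1 mismatch lay within 100 bp of the centre at 27.3% of lost sites, 2.56% of retained sites, 0.658% of gained sites and 4.37% of all sites. Windows of the same length 2 kb to one side held one in 0.694%. Seen the other way, 46.7% of the 6202 match sites called in both untreated libraries were lost (95% exact binomial interval 45.4% to 47.9%), against 6.81% of sites without a match (6.67% to 6.96%). With IAA replicate 1 left out, these shares were 53.9% and 11.9%. The intervals cover the counting of sites only. The share of lost sites with a match was 16.1% and 17.4% without untreated replicate 1 or 2, and 19.9% and 18.5% without IAA replicate 1 or 2. Loss followed the number of mismatches, a count added after the data were seen. The share lost was 53.9% at 0 mismatches, 43.9% at 1, 14.9% at 2, and 6.04%, 5.57% and 6.68% at 3, 4 and 5. Sites at 3 to 5 thus lay below the overall 8.88%. With IAA replicate 2 alone, the 6 shares were 61.3%, 51.1%, 19.8%, 10.8%, 10.8% and 12.9%, with 14% over all sites. Among the 96 lost sites above percentile 80, 86.5% had a match with at most 2 mismatches, among lost sites as a whole 44.1%, and in windows 2 kb aside 5.73%. Among gained sites the share was 7.14%, against 6.09% in windows 2 kb aside from them.

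**Figure D2:**
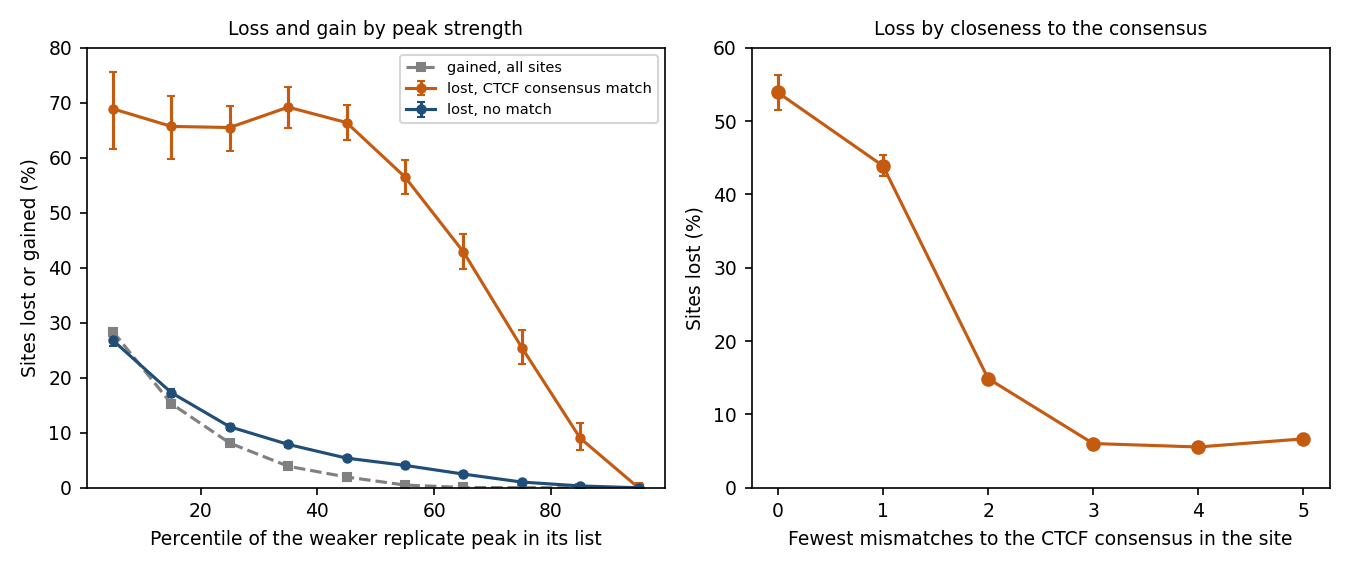
Left, percentage of sites lost (with or without a CTCF consensus match) or gained against the percentile of the weaker replicate peak, in steps of 10; right, percentage lost against the fewest mismatches to the consensus. Bars are 95% exact binomial intervals. Loss of match sites stays between 65.5% and 69.2% over the lower 5 steps and reaches 0% in the top step.

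Loss depended on the strength of the untreated peak. In the 5 lower steps of 10 percentiles, between 65.5% and 69.2% of match sites were lost. The share was then 56.5%, 42.9%, 25.5% and 9.03%, and none of 382 match sites in the top step was lost (upper limit 0.961%). When IAA replicate 1 was omitted, between 72.5% and 76.1% were lost in the lower 5 steps and 66.2%, 51.6%, 34.7%, 12.5% and 0.262% in the next ones. Without a match, loss went from 26.8% in the lowest step to 0.00828% in the top one. Gained sites were weak peaks. Their median percentile was 13 against 46.5 for lost sites with a match and 18.7 for lost sites without. Only 74 of the 5169 gained sites were above percentile 50, compared with 1231 of 2895 lost match sites. Strength and call come from the same lists, so a weak peak is also one more easily missed.

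By annotated position, protein-coding promoters (centre within 500 bp of a start) lost least. They lost 161 of 15160 sites, or 1.06%. This share was 1.78% with promoters drawn at 1000 bp, 2.59% when a summit within 250 bp was asked for, and 2.07% to 2.31% without any one library. Promoters of other genes lost 6.66%, exons 10.4%, introns 10.3%, intergenic sites within 100 kb of a start 9.90%, and sites farther away 7.54%. Without IAA replicate 1 these 5 shares were 11.7%, 17.6%, 16.3%, 15.2% and 13.1%. Without untreated replicate 1 they were 12.9%, 18.9%, 19.2%, 18% and 17.3%, without untreated replicate 2 12.7%, 17.4%, 17.6%, 16.1% and 15.6%, and without IAA replicate 2 12.6%, 17.1%, 17.5%, 16.4% and 13.6%. Introns held 51.7% of all lost sites and intergenic sites within 100 kb 35.8%, compared with 42.6% and 31.5% of retained sites. With a consensus match, the shares lost were 6.51% (4.43% to 9.16%) at protein-coding promoters and 54.4% (52.5% to 56.4%) in introns. Promoters of other genes lost 35.5% of match sites, exons 44.2%, intergenic sites 47.2% and deserts 39.1%. With IAA replicate 1 left out, the match sites lost were 7.38% at protein-coding promoters, 47% at other promoters, 53.8% in exons, 61.7% in introns, 55.1% between genes and 42.2% in deserts. Without a match the shares ran from 0.891% at protein-coding promoters to 8.30% in exons. Gained sites followed the same order at the low end, with 0.790% at protein-coding promoters, 3.75% at other promoters and 5.04% to 6.06% in the remaining 4 classes.

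**Figure D3:**
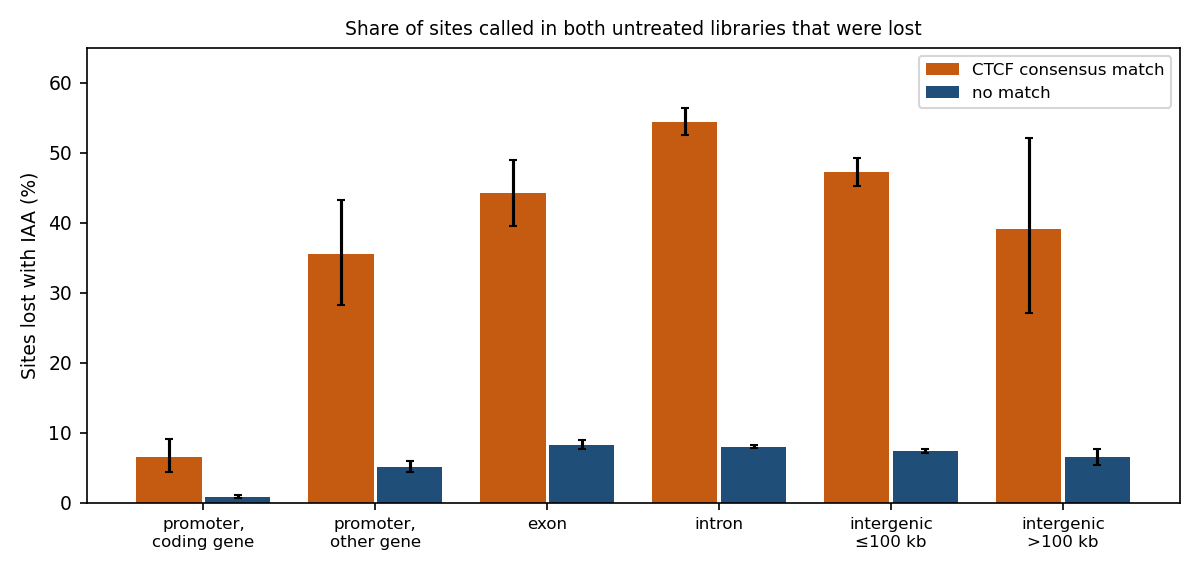
Percentage of sites called in both untreated libraries that were lost with IAA, by annotated position (horizontal axis) and presence of a CTCF consensus match within 100 bp. Bars carry 95% exact binomial intervals. Match sites at protein-coding promoters stand at 6.51% and those in introns at 54.4%.

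Peaks at protein-coding promoters were also stronger, with a median untreated percentile of 85.3 against 43.9 to 56.0 in the other classes. Match sites were therefore also compared in steps of 20 percentiles, within which strength still varied. Peak length was not held equal. Retained match sites at protein-coding promoters had untreated median lengths of 875 and 873 bp, against 555 and 524 bp in introns and 534 and 504 bp between genes. A call needs only a peak that overlaps the window, and the part of length in these shares was not tested. Between percentiles 20 and 40, loss was 36.8% at protein-coding promoters (7 of 19, interval 16.3% to 61.6%), 70.2% in introns (66.3% to 74%) and 65.1% between genes (60.5% to 69.5%), and the promoter interval overlapped those of all classes but introns. Between percentiles 40 and 60, loss was 14.1% at protein-coding promoters (9 of 64, interval 6.64% to 25%), 65.3% in introns (545 of 834, 62.0% to 68.6%) and 61.0% between genes (467 of 766). Between 60 and 80 it was 9.38% (4.38% to 17.1%), 41.8% (38.3% to 45.3%) and 32.6% (29.1% to 36.3%). In that step the interval of protein-coding promoters overlapped those of promoters of other genes (13.2% to 37%) and deserts (3.8% to 43.4%). Above 80, none of 267 match sites at protein-coding promoters was lost (upper limit 1.37%), compared with 28 of 261 in introns (10.7%) and 22 of 320 between genes (6.88%). In that range exons lost 1 of 62, promoters of other genes 1 of 35 and deserts 0 of 13, whose intervals overlap that of the protein-coding promoters. Promoters of other genes lost 55% between 40 and 60, 23.6% between 60 and 80 and 2.86% above 80.

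The per-library share of peaks with a match within 100 bp of the summit allows a comparison over libraries. In introns it was 5.14% and 5.13% without IAA and 1.52% and 1.60% with it. Between genes it went from 6.54% and 6.47% to 2.38% and 2.36%, and in exons from 5.80% and 5.93% to 2.00% and 2.14%. At promoters of other genes it went from 6.04% and 5.26% to 2.50% and 2.47%, and in deserts from 3.05% and 3.29% to 1.53% and 1.64%. Both IAA libraries lay below both untreated libraries in each class, and the gap was larger than the spread between replicates. At protein-coding promoters the shares were 3.25% and 3.24% against 2.47% and 2.57%, a difference of −0.723 points with a replicate spread of 0.0508. The exact permutation p, two-sided, was 0.333 in each of the 6 classes and 0.333 after Benjamini-Hochberg adjustment, which is the smallest that 2 libraries against 2 can give. The test cannot pass 0.05 in this design.

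**Figure D4:**
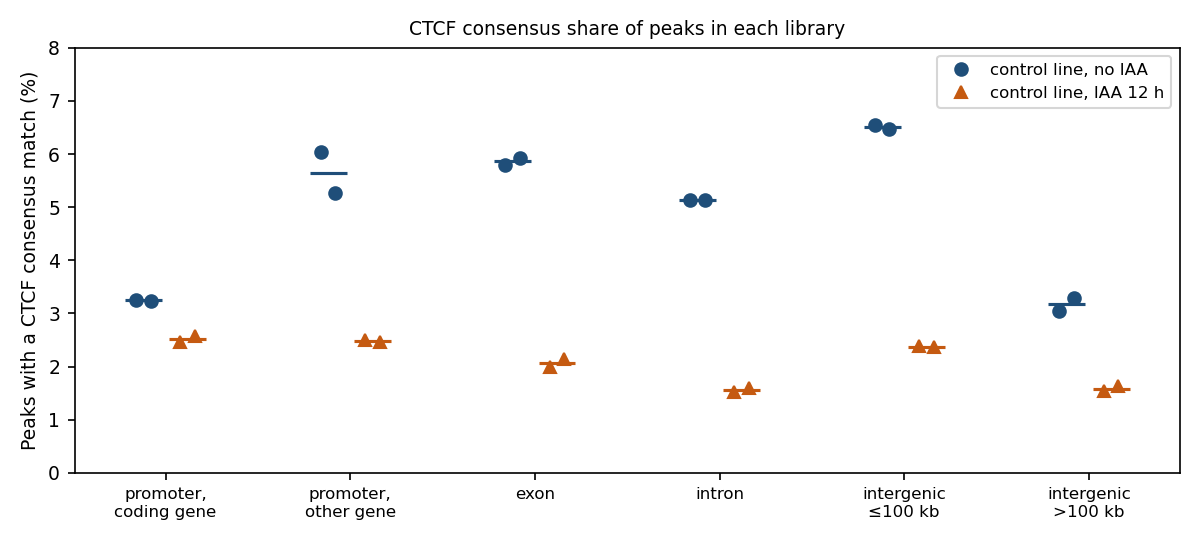
Share of peaks with a CTCF consensus match within 100 bp of the summit in each of the 4 libraries (points) and group means (lines), by annotated position. In each class both IAA libraries (triangles) lie below both untreated ones (circles), with the smallest gap at protein-coding promoters.

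Match sites that stayed listed in all 4 libraries ranked lower with IAA. The 2443 retained match sites had median percentiles of 75.1 and 76.2 without IAA and 60.1 and 60.9 with it, a difference of −15.1 with a spread of 0.65 (n = 2 a group, exact permutation p = 0.333). The 93104 retained sites without a match had 65.1 and 65.9 against 64.4 and 65. On equal-length lists this second difference changed sign, to 2.11, while that of match sites was −12.8. The authors' fold enrichment over local background had medians of 9.23 and 9.61 at match sites without IAA and 6.37 and 6.85 with it. Both IAA percentiles lay below both untreated ones at 58.1% of match sites and 24.4% of the others, and above both at 10.5% and 19.1%. The median change of a single site was smaller than the difference of medians, at −8.44 for match sites and −0.333 for the others. At protein-coding promoters the 417 match sites went from 87.5 and 87.6 to 83.4 and 82.9, a difference of −4.39, with a median change per site of −2.19. In introns the 838 match sites went from 71.0 and 73.2 to 55.1 and 54.3. The 33 desert sites went from 74.6 and 75 to 70.2 and 69.1, with a median change per site of −1.73. Of these, 42.4% had both IAA values below both untreated ones and 27.3% above.

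The summit lay farther from the match with IAA. At retained match sites the median distance from the nearest summit to the middle of the match was 39 and 38 bp without IAA and 56 and 50 bp with it (exact permutation p = 0.333). A summit lay within 50 bp of the match at 64.1% and 63.8% of these sites without IAA and at 46.1% and 50.4% with it. Exonic sites showed the largest shift of the 6 classes, from 39.5 and 37.5 bp to 71 and 56 bp. Desert sites were at 31 and 35 bp and at 33 and 34 bp, so the groups overlapped there, as they did at promoters of other genes (43 and 38.5 bp, 57 and 42.5 bp). Retained match sites had median lengths of 597, 560, 627 and 502 bp in untreated replicates 1 and 2 and IAA replicates 1 and 2. The difference in distance was 12 bp without IAA replicate 1 and 18.5 bp without IAA replicate 2.

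**Figure D5:**
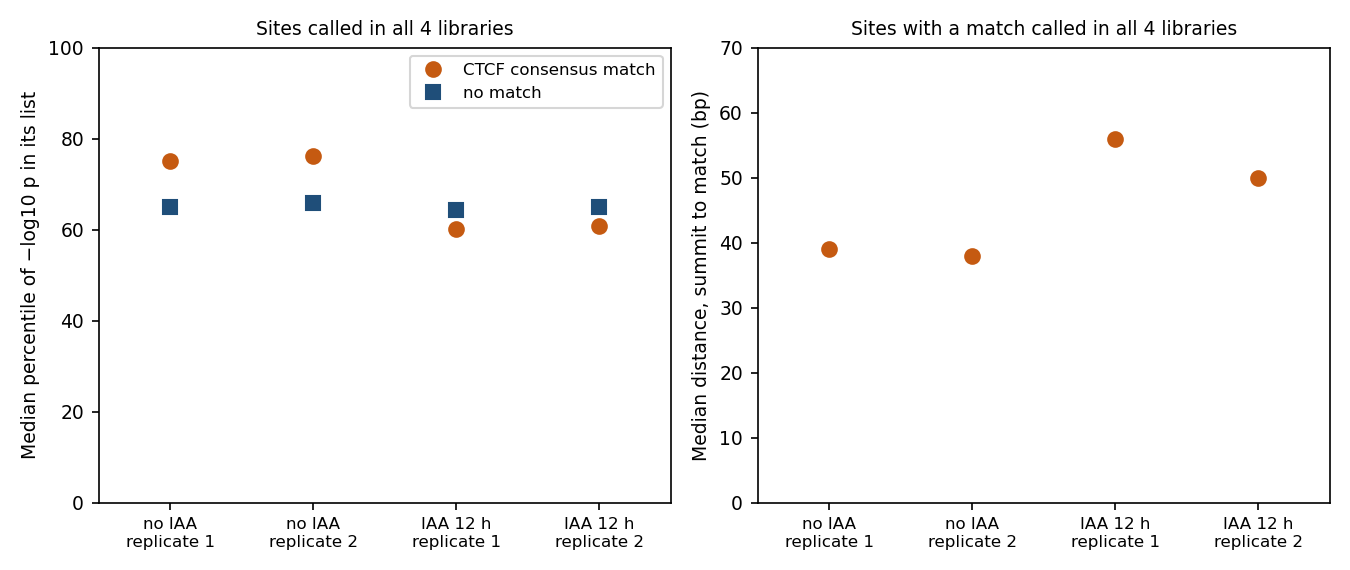
Left, median percentile of −log10 p in each library for sites called in all 4 libraries, with (2443) or without (93104) a CTCF consensus match; right, median distance from the nearest summit to the match at the 2443 match sites. Match sites lie at 75.1 and 76.2 without IAA and at 60.1 and 60.9 with IAA.

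Gained sites were few among strong peaks, and the strongest varied between libraries. The highest was 162 bp from the start of the small noncoding gene Gm23935, 9637 bp from Txndc11, at percentile 85.4 in each IAA library. It was listed in 1 of 2 libraries of the wild-type line, 1 of 2 of the mutated line and no serum library. A site 2510 bp from Gsdmc, a gasdermin gene, stood at 82.2 and 75.6. It was also absent from both untreated serum lists and present in both serum IAA lists, at 81.1 and 67.9. In an intron of the potassium channel gene Kcnn1 the gained site stood at 77.5 and 74.9, and with IAA in serum 1 of 2 libraries listed it at 44.5. At protein-coding promoters the strongest gained sites were Ccdc153, at 52.1 and 55.5, and Tfdp2, which encodes a partner of E2F factors, at 46.8 and 56.6. An exonic site of C030014I23Rik, 4125 bp from a start of the Wnt coactivator gene Bcl9l, stood at 54.9 and 71.4, and was not gained by summits or by merged intervals. An exonic site of the taurine transporter gene Slc6a6 stood at 52.9 and 56.3, and serum lists held neither of these promoters nor the Slc6a6 site. The remaining ones were an intron of Gm17173 (63.0 and 76.8), sites near Gm32431 (72.8 and 81.9), Gm45833 (60.2 and 62.9), Gm11904 (62.6 and 66.7, not gained by summits or merged intervals) and 1700063I16Rik (66.9 and 55.5).

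Sequence letters of 15 other factors were searched on both strands within 100 bp of each centre. The TCF letters ATCAAAG, read by TCF and LEF proteins that act with β-catenin, were in 6% of gained sites, 4.25% of retained, 2.18% of lost and 3.99% of all sites. Away from promoters they were in 6.10% of gained and 4.84% of retained sites, and in 3.67% of retained sites at or below percentile 30. Over whole lists they lay around 3.81% and 3.89% of untreated summits and 4.44% and 4.44% of IAA summits. This ratio of 1.15 was the highest of the 15. Over the lists, 10 of the 15 were higher in both IAA libraries than in both untreated ones, 3 were lower and 2 overlapped. The share with a CTCF match was lower, at 1.96% and 2.01% against 5.42% and 5.39%. All of these are shares of a list, so fewer peaks of 1 kind can raise the shares of others. The count of 10 is therefore not a count of motifs gained. The TCF p was 0.333 by exact permutation, two-sided, and 0.381 after Benjamini-Hochberg adjustment over the 16 motifs. The letters TTGCGTG of the aryl hydrocarbon receptor, a sensor that some indoles activate, were in 0.542% of gained and 0.550% of all sites. The CG-rich letters GGGGCGGGG (GC box) were in 1.04% of lost, 1.20% of gained, 4.52% of retained and 2.79% of all sites. Away from promoters they were in 1.11% of gained, 2.14% of retained and 1.33% of retained sites at or below percentile 30. AP-1 letters TGANTCA were in 6.90% of lost, 8.07% of gained, 7.38% of retained and 7.41% of all sites, and away from promoters in 8.04% of gained and 8.29% of retained sites. These are matches of letters and not bound sites.

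The distance to the nearest lost match site was compared between kinds of site. Away from promoters, 6.57% of 4934 gained sites had one within 10 kb, compared with 4.03% of retained sites, 4.13% of retained sites at or below percentile 30, and 3.95% of lost sites without a match. Within 1 kb the shares were 0.608%, 0.295%, 0.510% and 0.619%. Sites share chromosomes and domains, so no test was made. For lost match sites the next called site was at a median of 4502 bp, against 3341 bp for retained sites, and 13.3% had a neighbour within 1 kb, against 23.6%. The share lost on the autosomes ran from 7.86% on chromosome 17 to 9.50% on chromosome 8, and was 7.05% on the X chromosome. Of match sites, 38.3% on the X (41 of 107) and 41.8% (chromosome 17) to 51.2% on the autosomes were lost.

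Lost match sites were compared with the serum libraries, which are separate from the 4 used here and shorter lists. Both untreated serum libraries listed 1121 of the 2895 lost match sites (38.7%), and 78.6% of the 1121 were in neither serum IAA list. For lost sites without a match the figures were 13.4% listed and 55.5% of those in neither. For retained match sites they were 68.9% and 11.3%, and for all retained sites 40.1% and 2.19%. Of 166 gained sites listed in both untreated serum libraries, 72.9% were also in both serum IAA lists. In the line overexpressing wild-type CTCF, both libraries listed 49.6% of lost match sites, and in the mutated line 37.3%. For lost sites without a match these shares were 34.2% and 26.5%, and for retained sites 94.0% and 94.2%.

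Of 21938 protein-coding genes, 18266 had a site called in both untreated libraries in the gene or within 10 kb, 6468 had at least 1 lost site, 2405 at least 1 lost match site and 3669 at least 1 gained site. The genes with the most lost sites were very long in the annotation. Gm20388, a span of 4435 kb on chromosome 8, lost 64 of 457 sites (25 with a match) and gained 22. Fgfr2, annotated over 2961 kb, lost 24 of 216 and gained 10. Nav2, a neuron navigator gene, lost 12 of 50, of which 5 had a match. Pde4d, a cyclic AMP phosphodiesterase, lost 11 of 86 and gained none. Tenm4, a teneurin, lost 11 of 97 and gained 7. Ptprg and Snd1 each gained 6, while Ptprg lost 7 of 79 and Snd1 lost 1 of 53. The share lost was 24% at Nav2 and 1.89% at Snd1, against 8.88% over all sites. Genes were chosen by these counts, so no more is read from the shares. Of 16296 protein-coding genes with 2 or more sites called in both untreated libraries, 15 lost every one of these sites, a feature chosen after the values were seen. Among them were Fmo2, a flavin monooxygenase (2 of 2, both with a match), Th, the tyrosine hydroxylase of dopamine synthesis (2 of 2, 1 with a match), and the protease gene Prss32 (3 of 3, none with a match). With 8.88% of all sites lost, some genes with so few sites can lose all of them at the general rate. Whether 15 genes exceed that rate was not tested, and no more is read from the count.

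Of 238 sites near 24 genes of naive pluripotency, 18 were lost (7.56%, against 8.88% over all sites), 2 of them with a match, and 6 were gained (2.65%, against 4.66%). The strongest lost one lay 9898 bp from Dppa5a, a stem cell marker gene, at 76.6 and 73.6. A match with 1 mismatch lay there. The strongest gained one was in an intron of Klf5, a stem cell regulator, at 42.2 and 22.0, and was not gained by summits or merged intervals. Primed and lineage regulators lost 12 of 137 (8.76%), 5 with a match, and gained 2 of 130 (1.54%). The strongest was in Elf5, a trophoblast regulator, at 51.1 and 53.1. The strongest gained was 17043 bp from the neural gene Six3, at 18.1 and 15.3. With IAA replicate 2 alone, the share lost was 10.5% near the naive and 13.1% near the primed genes, against 14% over all sites, and the share gained 4.74% and 5.13%, against 11.9%. Leaving out untreated replicate 1 turned the primed genes' share gained to 11.5% (15 of 130), against 9.07% over all sites. The shares lost near naive and primed genes were then 12.6% and 11.2%, against 16.8%, and without untreated replicate 2 they were 9.89% and 9.26%, against 15.2%. Without IAA replicate 2 they were 11.8% and 15.3% (21 of 137), against 15%, so the primed genes were then level with all sites.

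Genes of CTCF and cohesin lost 8 of 147 sites (5.44%, against 8.88% over all sites) and gained 16 of 153 (10.5%, against 4.66% over all sites). The strongest lost was a match site in Supt16, a subunit of the histone chaperone FACT, at 71.9 and 75.6. The strongest gained was 27323 bp from Rbm20, at 50.9 and 41.1, and was not gained by summits or merged intervals. Cell cycle genes and Myc lost 17 of 156 (10.9%), 5 with a match, and gained 2 of 145 (1.38%). The strongest was the exact match in Ccnd2, the cyclin D2 gene, at 79.4 and 76.6, for which the sequence is given above. Cdk6 held the strongest gained one, at 32.0 and 23.7, and was not gained by summits. Targets of the aryl hydrocarbon receptor lost 3 of 41 (7.32%) and gained 4 of 42 (9.52%). The strongest lost lay 8252 bp from Nqo1, at 30.9 and 30.4, and the strongest gained 743 bp from Ctsk, at 34.8 and 30.3. When IAA replicate 1 was omitted, the shares lost were 8.84%, 14.7% and 9.76% for CTCF and cohesin, cell cycle and receptor target genes, against 14% over all sites. The shares gained were then 15.6%, 6.1% and 17.3%, against 11.9%. Without IAA replicate 2 the receptor targets gained 5 of 45 (11.1%), against 11.3% over all sites, and lost 14.6%, against 15%. They lost 14.9% without untreated replicate 1 and 15.7% without untreated replicate 2, against 16.8% and 15.2%, so their share lost was not lower in every setting. For CTCF and cohesin genes the share lost was 17.3% without untreated replicate 1 and 13.4% without untreated replicate 2, against 16.8% and 15.2% over all sites, so their lower share lost rests on the choice of libraries. Cell cycle genes and Myc lost 15.8% and 16.1% in the same 2 settings and 14.7% without IAA replicate 2, against 15% over all sites. Their share thus lay on either side of that of all sites.

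Olfactory receptor genes, many in tandem arrays, lost 37 of 329 sites (11.2%, against 8.88% over all sites) and gained 13 of 305 (4.26%, against 4.66%). Of their 21 match sites 12 were lost (57.1%, against 46.7% over all match sites). Their strongest gained site was 3374 bp from Olfr1454, at 37.0 and 40.2. Vomeronasal receptors lost 5 of 89 (5.62%) and gained 4 of 85 (4.71%). The strongest lost one lay 10607 bp from Vmn1r236 at 73.0 and 65.9, and both serum IAA libraries listed it at 30.4 and 46.2. Their strongest gained site was at the Vmn1r210 promoter at 38.4 and 23.0. That site was not gained with peaks accepted up to 250 bp from the centre, by summits or by merged intervals. Cytokeratins lost 7 of 46 (15.2%), the strongest in a coding exon of Krt88 at 61.1 and 49.8. They gained 1 of 36 (2.78%), at Krt80, at 32.3 and 21.6, which was not gained at the stricter −log10 q of at least 5. Zinc finger (Zfp) genes lost 93 of 1631 (5.70%) and gained 70 of 1555 (4.50%). Their strongest lost site was a match in an intron of Ing4 at 71.7 and 71.4, and the strongest gained one was in Zfp395 at 52.6 and 52.2, which was not gained under the same 3 alternatives as Vmn1r210. Ribosomal protein genes lost 26 of 393 (6.62%) and gained 26 of 395 (6.58%). The strongest lost one lay in the Gm20388 span at 80.7 and 81.1, and the strongest gained one was 3788 bp from Rps9, at 51.6 and 48.1, not gained by merged intervals. It was listed in both untreated serum libraries. Replication-dependent histone genes lost 3 of 92 (3.26%) and gained 1 of 89 (1.12%). One was an exact match 748 bp from Hist1h4j at 61.5 and 90.6, which both serum IAA libraries listed. That site was not lost with peaks accepted up to 250 bp from the centre, by summits or by merged intervals. The strongest gained was 10069 bp from Hist1h4n, at 37.0 and 46.2, and was listed in both untreated serum libraries. Without IAA replicate 1 the shares lost were 15.8% (olfactory), 7.87% (vomeronasal), 23.9% (cytokeratins), 11.2% (Zfp), 10.2% (ribosomal) and 6.52% (histones), against 14% over all sites. The shares gained were 15.9%, 13.1%, 4.88%, 10.9%, 11.8% and 4.17%, against 11.9%. Vomeronasal receptors lost 17% without untreated replicate 1 and 14.6% without untreated replicate 2, against 16.8% and 15.2% over all sites, and were then near the background.

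Imprinted genes, which are expressed from 1 parental copy, lost 22 of 241 sites (9.13%, against 8.88% over all sites) and gained 5 of 214 (2.34%, against 4.66%). Of 12 match sites 5 were lost (41.7%, against 46.7%). With IAA replicate 1 left out, the shares were 15.4% lost and 10.8% gained, against 14% and 11.9% over all sites. The strongest lost site was in an intron of H13, at 77.9 and 83.1, with 2 mismatches at best. The strongest gained was in Trappc9 at 40.1 and 43.3, not gained by merged intervals. At H19 and Igf2, 2 sites were called in both untreated libraries and both were retained. Their control region, a textbook CTCF insulator, was not marked out, and no call was assigned to it. The site nearest to H19 lay in Gm33148, 19526 bp from a start of that gene and farther from any start of H19. It stood at percentiles 88.0, 90.4, 84.3 and 88.6 in untreated replicates 1 and 2 and IAA replicates 1 and 2. The other was in Igf2os at 55.8, 53.1, 55.8 and 52.6. Neither held a consensus match. Around Xist and Tsix, the noncoding genes of X inactivation, 14 sites were called in both untreated libraries, and 1 was lost, at the Tsx promoter at 33.5 and 35.0. None held a match. Near the 9 listed genes of the X-inactivation centre, which do not include Tsx, none of 41 sites was lost and none of 37 gained. With IAA replicate 2 alone, 4.88% were lost and 8.33% gained, against 14% and 11.9% over all sites. The share lost was 7.32% without IAA replicate 2 and 10.6% (5 of 47) and 4.26% without untreated replicate 1 or 2, against 15%, 16.8% and 15.2%. The β-globin window had 1 such site, retained at 91.2, 93.6, 91.3 and 93.2. Near the listed globin genes all 4 sites called in both untreated libraries were retained, 2 with a match.

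Hox genes, which pattern the body axis and are divided by CTCF sites, lost 4 of 107 sites (3.74%, against 8.88% over all sites) and gained 11 of 109 (10.1%, against 4.66%). When IAA replicate 1 was omitted, they lost 8.41% and gained 12.9%, against 14% and 11.9% over all sites. Counted over the 4 cluster windows instead of near the listed genes, HoxA lost 3 of 40 sites, HoxB 2 of 24, HoxC 0 of 27 and HoxD 1 of 22. No lost Hox site had a match with at most 1 mismatch. The strongest lost site lay 5734 bp from Hoxa4 at 61.1 and 72.7. Its window held 2 mismatches at best, and both serum IAA libraries listed it. The strongest gained was in the coding sequence of Hoxb8, at 32.2 and 34.5 (not gained by merged intervals or with peaks accepted up to 250 bp from the centre), and the weaker replicate of the other gained sites in the 4 cluster windows was at or below percentile 18.1. All 3 match sites called in both untreated libraries kept a peak in at least 1 IAA library. Their sequences, shown because they differ from the lost ones in outcome, were read as above, each with 1 mismatch.
Hoxa5 promoter, chr6:52204637-52204690, minus strand: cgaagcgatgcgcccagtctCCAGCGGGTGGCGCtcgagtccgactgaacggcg
Hoxa10 promoter, chr6:52240531-52240560, minus strand: cgcagccgCCACGAGATGGCGCactcccga
Hoxc11 exon, chr15:102955197-102955226, plus strand: agccgcccCCAGTAGGTAGCAGcggccggg
The Hoxa10 promoter went from 64.5 and 68.0 to 24.3 and 48.0, with both IAA values lower. The Hoxc11 exon stood at 56.7 and 62.7 against 43.8 and 60.1, so the groups overlapped. The Hoxa5 promoter had 15.9 and 30.0 without IAA, no peak in IAA replicate 1 and 52.9 in IAA replicate 2.

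The clustered protocadherins, cell-surface proteins of neurons whose promoters are chosen through CTCF, lost 18 of 86 sites (20.9%, against 8.88% over all sites) and gained 3 of 63 (4.76%, against 4.66%). Without IAA replicate 1 they lost 29.1% and gained 9.21%, against 14% and 11.9% over all sites. None of the 18 had a match with at most 1 mismatch, and the 3 match sites there were not lost. The strongest lost site was at the Pcdhgb2 promoter, at 52.9 and 65.7, with 4 mismatches at best. The strongest gained was in a coding exon of Pcdhga2, at 50.7 and 27.7, not gained by merged intervals or with peaks accepted up to 250 bp from the centre. The annotated spans Gm42416, Gm37013 and Gm37388, which overlap these genes on chromosome 18, lost 18, 16 and 15 sites and so count the same sites again. On the same chromosome, the intron of Cplx4, a complexin gene, held a lost match site at 89.0 and 88.3, the strongest lost match site of the introns. In untreated serum cells it stood at 93.6 and 68.5, and in neither serum IAA list.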

How the data were processed

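ATAC-seq peak lists of 4 libraries of a CTCF AID control line (2 without IAA, 2 with 12 h of IAA) were used, with 8 further libraries for reference. The submitters' processing notes name Trim Galore, Bowtie2, MACS2 and deepTools and the mm10 build. Versions, settings and read depth are not given in the sources used here. Lists are per library. The deposited values are, per peak, a fold (a ratio of summit signal to local background), −log10 p and −log10 q scores and the summit offset. Within each list they gave the order of the peaks and the stricter filter. Medians of the fold and the highest −log10 p are set side by side between lists as descriptions.

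Summits at most 250 bp apart formed a site, centred on the median summit. A library called a site when a peak overlapped the 100 bp on either side of the centre. Positions came from GENCODE vM21 and sequence from GRCm38. The 14-base CTCF core consensus was searched on both strands with at most 1 mismatch (Python 3.11.15, pandas 2.3.3, pysam 0.24.0, scipy 1.17.1). Site calls and the motif search were tested on simulated data. Groups were compared by exact permutation of library labels, two-sided. With 2 libraries a group no site can be tested singly.

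Text names the 4 strongest lost and 2 strongest gained sites of each of 6 position classes, the 8 and 5 protein-coding genes with most lost and most gained sites, the strongest lost and gained site of each of 16 gene lists, and known CTCF loci. The members, lists and motifs were chosen with earlier results of these data known. Alternatives covered the definition of a call, list length, a −log10 q of at least 5, merged intervals, motif settings, promoter distance, single libraries left out (shares by mismatches, strength and gene list included) and the replicate block.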

Additional observations from a re-analysis of the deposited data

How the results depend on the processing

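Lost sites outnumbered gained sites under every alternative run, but without IAA replicate 1 they were nearly level, with 16811 lost and 16336 gained. The count of lost sites stayed within 1.5 times under each alternative except leaving out a library. That gave 16811 to 24602 lost and 10064 to 16336 gained sites because fewer libraries set the condition. With a −log10 q of at least 5, 3202 sites were gained. The motif share of lost sites was 25.6% by summits within 250 bp, 33.9% on equal-length lists, 32.5% with the stricter q, 29.2% with merged intervals, 8.70% without mismatches, 29.4% with the motif within 250 bp, 44.1% with at most 2 mismatches (added after seeing the data) and 16.1% to 19.9% without a library. For gained sites the same settings gave 0.885% (summits), 0.906% (stricter q), 1.15% (merged), 0.0774% (no mismatch), 1.47% (250 bp) and 7.14% (2 mismatches, against 6.09% aside). The percentile difference of retained sites without a match reversed to 2.11 on equal-length lists. The other differences of percentile, distance and motif share kept their direction under the settings run, with −1.10 points of motif share without mismatches (−0.13 at protein-coding promoters) and 36 bp of distance with the motif within 250 bp. Protein-coding promoters had the lowest share lost under each setting. Their p of 0.333 is a limit of 2 libraries a group and says nothing of stability. Same-numbered libraries deviated together little in percentile (r = 0.0349 over 95547 retained sites). The labels do not say whether the numbers mark libraries prepared together, and this value cannot settle it. With the replicate block the differences were those of the unpaired means (−3.42 points of motif share, −15.1 percentiles, 14.5 bp), with an exact permutation p = 0.5, the smallest for 2 pairs. No named lost site became gained or the reverse. Where a site was no longer lost or gained, it was so with merged intervals (14 of 63), summits within 250 bp (9), peaks up to 250 bp from the centre (7) or the stricter q (1 of 61, with the sites of Klf5 and Six3 not formed). Peak lists without depth limit what an absent peak means.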
